A study of Talpa occidentalis with 6 samples.

Results

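The regions described here are short stretches of mole DNA that were open in the ovarian part of the ovotestis, in its testicular part and in the testis alike. There were 18429 of them, out of 18615 runs of any length that were open in all 3 tissues on the same scaffolds. They were selected on the measured chromatin state itself: 200 bp bins in state 1 in each of the 3 segmentations were joined where they touched, and runs shorter than 2000 bp on scaffolds 1 to 17 of the assembly talOcc4 were kept, with scaffold 15 left out. That the members are open in every tissue is therefore given by the choice. The place of their edges and the state of the first bin outside are partly fixed by it too, since at least 1 tissue must leave state 1 there, while states farther out were not used. Bins in state 1 in all 3 tissues made up 0.549% of the 9580688 bins on these 16 scaffolds, and the members held 95.5% of that sequence.

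The tissues came from Iberian moles, Talpa occidentalis, that were wild type and 7 days old, and the labels list no treatment of the animals. Females of this species have ovotestes, in which an ovarian and a testicular part lie in 1 organ, while males have testes. Each tissue had 2 ATAC-seq samples, but the authors' files hold 1 pooled segmentation per tissue, with 5 numbered states. The tissues are thus compared without replicates and without a test between them, and the 95% Wilson intervals given below cover counting error only. The depth of the samples is unknown. By the library numbers in the titles, the samples of the ovotestis carry consecutive numbers and those of the testis lie apart, so tissue and library numbering cannot be told apart wherever the testis is compared. The labels name no sorting of cells, and the share of each cell type was not measured.

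ATAC-seq uses a transposase that cuts and tags DNA where nucleosomes leave it exposed. Such sites include the promoters of widely used genes, which tend to be open in most cell types, and distal elements such as enhancers and insulators, of which enhancers are more often open in some cell types and closed in others. A segmentation divides the genome into stretches that each carry 1 of a few numbered states. In the mole segmentations, state 1 is at the most open end of the ordered series of states as read from the authors' colours, state 2 borders it, state 3 lies between, and states 4 and 5 are called closed here. The meaning of the numbers is not stated in the sources used here, and the comparisons assume that a number means the same in each tissue. No genome of this assembly was used, so no sequence, gene or promoter is given for any region.

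Most of the shared regions were small. Regions of 200 bp, a single bin, numbered 5203, or 28.2% of the members, and those of 400 bp numbered 5029, or 27.3%. A further 3261 spanned 600 bp and 2137 spanned 800 bp. The median length was 400 bp, with quartiles of 200 bp and 800 bp, and the mean was 545.7 bp. At the limit of the choice, 122 regions of 1800 bp were just inside and 69 runs of 2000 bp were just outside. The lengths formed a continuous series across the limit, with 220 regions of 1600 bp on one side and 35 runs of 2200 bp on the other. The 186 longer runs together covered 0.469 Mb, against 10.1 Mb in the members, and the longest spanned 6200 bp.

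**Figure D1:**
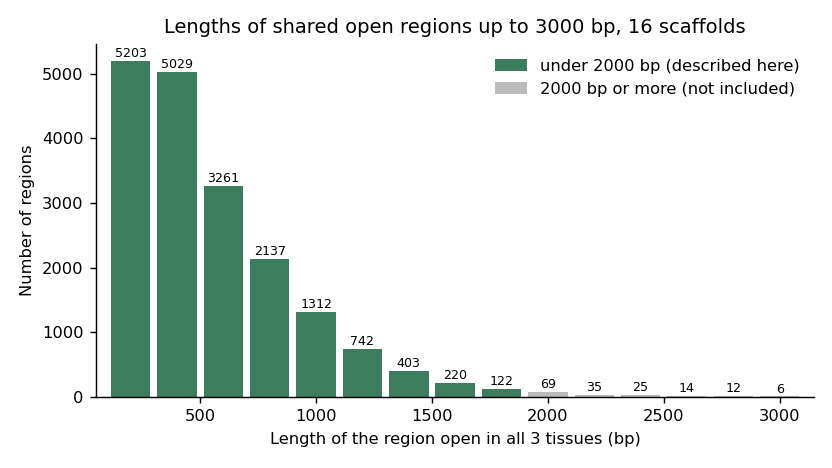
Number of regions open in all 3 tissues by length in bp, up to 3000 bp, on the 16 scaffolds; green bars are the members and grey bars the runs left out for their length. The counts decline steadily from 5203 at 200 bp to 122 at 1800 bp, and the bars show no break at 2000 bp.

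These regions were the largest of 4 classes of the open chromatin of each tissue. They were 55.9% of the state 1 sequence in the ovarian part, 58% in the testicular part and 56.9% in the testis. Shared runs of 2000 bp or more added 2.61%, 2.7% and 2.65%. The rest of each tissue's state 1 was placed differently. Touching bins open in any of the 3 tissues were joined into stretches. Stretches with a shared bin held further state 1 that was not open in all 3 tissues. It took 18.1% of the total in the ovarian part, 14.2% in the testicular part and 9.04% in the testis. State 1 in stretches without a shared bin took 23.4% in the ovarian part, 25.1% in the testicular part and 31.4% in the testis. In lengths, the further state 1 came to 3.25 Mb in the ovarian part, 2.46 Mb in the testicular part and 1.6 Mb in the testis. State 1 in stretches without a shared bin came to 4.21 Mb, 4.35 Mb and 5.56 Mb in the same order of tissues. The unshared open chromatin of the ovarian part thus lay more often in stretches with a shared bin than that of the other tissues. That of the testis lay more often in stretches without one. The 8954 joined regions open in the testis alone had a median of 200 bp, as had the 7458 of the ovarian part alone and the 4674 of the testicular part alone.

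Few places open in a pair of tissues were closed in the remaining one. Over all bins, 62.2% were closed in the ovarian part, 60.9% in the testicular part and 60.3% in the testis, and 0.938%, 0.905% and 0.923% were in state 1. Of 63383 bins open in the testicular part and the testis, 83% were also open in the ovarian part (82.7% to 83.3%). There 15.1% were in state 2, 1.84% in state 3, and 28 bins were closed. Of 62163 bins open in both parts of the ovotestis, 84.7% were open in the testis (84.4% to 84.9%). There 15.2% were in state 2, 0.113% in state 3, and 3 bins were closed. Of 58821 bins open in the ovarian part and the testis, 89.5% were open in the testicular part (89.2% to 89.7%). There 10.3% were in state 2, 0.179% in state 3, and 3 bins were closed. The testicular part was therefore the tissue that least often kept a bin out of the shared set.

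At the shared regions, the open segment was widest in the ovarian part and narrowest in the testis. The state 1 segment that held a member averaged 769.6 bp in the ovarian part, 748.9 bp in the testicular part and 642.3 bp in the testis. A segment was counted once for each member it held. Each tissue had a median of 600 bp. The ovarian part had the wider segment at 7716 members when set against the testis, or 41.9% (41.2% to 42.6%), and the testis at 2984, or 16.2% (15.7% to 16.7%), while 7729 were equal. Against the testicular part, the ovarian part was wider at 35.6% of members and the testicular part at 18.4%. The testicular part was wider than the testis at 30.5% and narrower at 19.3%. The mean in the ovarian part was above that in the testis on 16 of 16 scaffolds, and the full order of the 3 tissues held on 13. The ovarian part alone had the widest segment at 4920 members, against 2076 for the testicular part and 1579 for the testis. In total, the ovarian part had 30202 state 1 segments in 17.98 Mb, the testicular part 29956 in 17.34 Mb and the testis 34980 in 17.68 Mb. The mean over all segments thus ran in the same order. Segments with no shared bin averaged 350.5 bp, 369.5 bp and 339.5 bp in that order of tissues. The comparison of widths place by place was made at members only.

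The edges of the shared regions were mostly common to the tissues or 1 bin apart. At 18891 of 36858 sides, or 51.3% (50.7% to 51.8%), state 1 ended at the same bin in all 3 tissues, and at 86.1% it ended within 1 bin. A total of 5212 members, 28.3%, had exactly the same extent in every tissue. By the rule, at least 1 tissue must end at each edge, and the testis did so most often: its segment ended at the member's edge at 82.7% of sides, against 66.6% for the ovarian part and 75.4% for the testicular part. The ovarian part alone went past the edge at 12.7% of sides, the testicular part alone at 5.13% and the testis alone at 4.44%. Most of these steps were short. Among the sides where the ovarian segment went on, 72.9% did so by 1 bin, as did 71% in the testicular part and 79.7% in the testis. The edge itself was a small step in state: the first bin outside a member was in state 1 or 2 at nearly every side, with state 2 at 66.4% of sides in the ovarian part, 75% in the testicular part and 82.4% in the testis, and state 1 at 33.4%, 24.6% and 17.3%.

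Outside the edge, the chromatin closed over a shorter distance in the testis than in either part of the ovotestis. At 1000 bp, closed states held 4.92% of sides in the ovarian part, 7.57% in the testicular part and 11.8% in the testis. At 2000 bp they held 17.5% in the ovarian part (17.1% to 17.9%), 25.9% in the testicular part (25.4% to 26.3%) and 33.6% in the testis (33.1% to 34.1%). At 5000 bp the shares were 33.4%, 42.7% and 47.2%, and at 100000 bp they were 46.3%, 48.2% and 51.3%. Over all bins the order was the other way round: 62.2% were closed in the ovarian part, 60.9% in the testicular part and 60.3% in the testis. Even at 100000 bp, all 3 tissues were less closed beside members than over all bins.

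**Figure D2:**
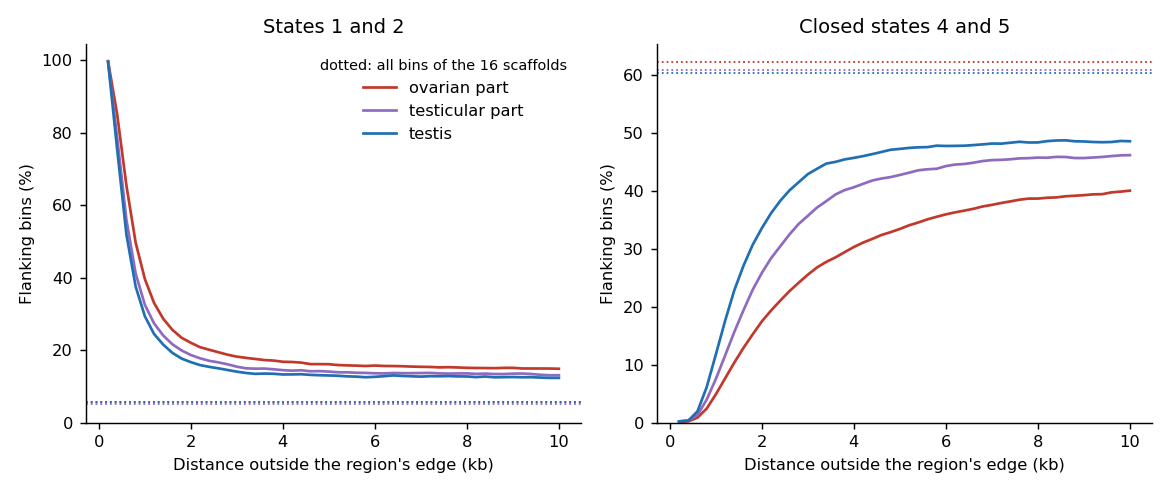
Share of flanking 200 bp bins, in percent, against distance in kb outside the edge of a member, for states 1 and 2 (left) and the closed states 4 and 5 (right); solid lines are the 3 tissues and dotted lines of the same colour are all bins of the 16 scaffolds. At 2 kb the closed share is 17.5% in the ovarian part, 25.9% in the testicular part and 33.6% in the testis, and all 3 solid lines lie below the dotted lines, which are at 62.2%, 60.9% and 60.3%.

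Side by side at the same position, the tissues differed mostly one way. At 2000 bp, 20.3% of sides were closed in the testis and not in the ovarian part, while 4.2% were closed in the ovarian part and not in the testis. Over all bins these shares were 10.4% and 12.3%. Both flanks were closed at that distance at 1209 members in the ovarian part, or 6.56%, at 2041 in the testicular part, or 11.1%, and at 2985 in the testis, or 16.2%. Members closed on both sides in all 3 tissues numbered 524, or 2.84% (2.61% to 3.09%). Only the bin at that distance was read on each side. A total of 1457 members were closed on both sides in the testis alone, against 332 in the ovarian part alone. Pairs of positions so placed were not counted over all bins. Taken singly, 62.2% of all bins were closed in the ovarian part, 60.9% in the testicular part and 60.3% in the testis.

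The wider borders of the ovarian part extended through every step of the series of states. The run of states 1 and 2 around a member had a median of 2200 bp in the ovarian part, 2000 bp in the testicular part and 1800 bp in the testis. The run of states 1 to 3 had medians of 12800 bp, 9000 bp and 7400 bp, so the relative difference was larger for the outer states. The run of states 1 to 3 was longer in the ovarian part than in the testis at 75.8% of members (75.2% to 76.4%) and shorter at 21.2%. It was longer in the ovarian part than in the testicular part at 68.4% and longer in the testicular part than in the testis at 65.4%. Run lengths were not measured away from members, so longer runs may not be particular to the shared regions. Among all windows of 50 kb on each side, states 1 to 3 covered 80% or more in 6.65% in the ovarian part and 3.72% in the testis. They covered under 20% in 21.7% and 13.8%. The ovarian and testicular parts carry consecutive library numbers, but their depth is unknown. Whether library numbering or depth bears on the run lengths was not tested.

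The flanks were also set against those of each tissue's open segments that held no shared bin, with the distance taken from the segment's own edge. In the ovarian part, 18.7% of the sides of segments with a member were closed at 2000 bp (18.3% to 19.1%), against 28.5% for its other segments (27.9% to 29.1%). In the testicular part the shares were 27.1% (26.7% to 27.6%) and 26.7% (26.1% to 27.3%). In the testis they were 34.4% and 34.5%, with intervals of 33.9% to 34.9% and 33.9% to 35%. Each segment was counted once here, and those that also held a shared run of 2000 bp or more were left out. The segments with a member were longer, with a mean of 738.2 bp in the ovarian part against 350.5 bp for its other segments, 691.6 bp against 369.5 bp in the testicular part and 634.2 bp against 339.5 bp in the testis. By the closed share, shared and unshared segments thus lay apart in the ovarian part, and their intervals overlapped in the other tissues. The share of states 1 and 2 at that distance gave another picture: it was 20.4% for segments with a member and 19.7% for the others in the ovarian part, 17.2% and 23.6% in the testicular part, and 16.3% and 14.6% in the testis. No test of the difference between tissues was possible with 1 segmentation each.

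The closed shares of the tissues lay farther apart at shared regions of 800 bp than at those of 200 bp, and the gap changed little beyond. Among regions of 200 bp, 22% of sides were closed at 2000 bp in the ovarian part, 23.7% in the testicular part and 28.9% in the testis. Among the 2137 regions of 800 bp the shares were 15.1%, 29.1% and 39.6%. Among the 1312 regions of 1000 bp they were 12.1%, 28.4% and 39%. Among the 122 regions of 1800 bp they were 11.1%, 25.8% and 36.1%. Longer regions thus had less closed flanks in the ovarian part, where the share declined with length apart from small upturns at 800, 1400 and 1800 bp, and more closed flanks in the testis up to 800 bp. Runs of 2000 bp, just outside the limit, had 8.7%, 29.7% and 40.6%. The share of members with a wider state 1 segment in the ovarian part than in the testis was 35.8% at 200 bp, 47.3% at 800 bp, 45.1% at 1000 bp and 40.2% at 1800 bp. In mean width, the ovarian part was above the testicular part at each length up to 1400 bp. At 1600 bp the means were 1855 bp in the ovarian part and 1858 bp in the testicular part, and at 1800 bp they were 2075 bp and 2549 bp, with 1875 bp in the testis. The medians kept the ovarian part above the testicular part at both lengths. They were 1800 bp against 1600 bp at 1600 bp, and 1900 bp against 1800 bp at 1800 bp.

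**Figure D3:**
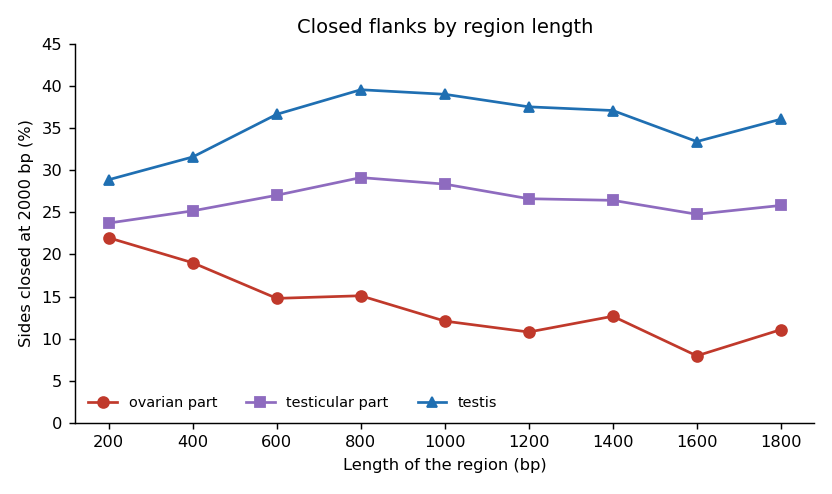
Share of sides closed at 2000 bp, in percent, against the length of the region in bp, for the 3 tissues; each point pools both sides of all members of that length. The lines start close together at 200 bp, with 22% in the ovarian part, 23.7% in the testicular part and 28.9% in the testis, and lie apart at 800 bp, with 15.1%, 29.1% and 39.6%.

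The broader surroundings of the shared regions were also more open than the genome at large, and most so in the ovarian part. Within 50 kb on each side, leaving out the member, states 1 to 3 covered a median of 58.8% in the ovarian part, 54% in the testicular part and 50.4% in the testis. Windows of the same length laid end to end over the 16 scaffolds had medians of 33.2%, 34.8% and 36.8%. By the medians, the order of the tissues around members was therefore the reverse of that over all windows. Surroundings at least 80% covered by states 1 to 3 were found at 28.2% of members in the ovarian part, 21.3% in the testicular part and 14% in the testis, against 6.65%, 6.31% and 3.72% of all windows. By this second measure the order was the same around members and over all windows. The cover around a member was higher by 20 percentage points or more in the ovarian part than in the testis at 3611 members, or 19.6%, and higher by that margin in the testis at 473, or 2.57%. Among all windows the shares were 6.75% and 8.82%. Neighbouring members share surroundings, so these counts are not of independent places.

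Shared regions also lay in surroundings that differed strongly between the tissues. The pair named here was chosen after its values were seen, as the extremes of the difference. The region on scaffold 2 at 35050601 to 35051000 was a segment of 400 bp in each tissue, while states 1 to 3 covered 76.8% of its surroundings in the ovarian part, 73.2% in the testicular part and 15.4% in the testis. The region on scaffold 8 at 3113001 to 3113200 lay in surroundings with 14.8% in the ovarian part, 73.4% in the testicular part and 77.8% in the testis. Its state 1 segment measured 200 bp, 800 bp and 400 bp in the same order of tissues.

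Density varied 3.43-fold between scaffolds, and the order of the tissues in closed flanks held on each. There were 9.62 members per Mb over the 16 scaffolds, with the lowest density, 5.76 per Mb, on scaffold 6 and the highest, 19.8 per Mb, on scaffold 17, the shortest of them at 59.1 Mb. Scaffold 12 had 15.1 per Mb, scaffold 7 had 12.8 and scaffold 2 had 12.1. The share of sides closed at 2000 bp was lowest in the ovarian part, intermediate in the testicular part and highest in the testis on 16 of 16 scaffolds. On scaffold 17 the shares were 5%, 15.9% and 24.8%, and on scaffold 6 they were 26.9%, 32.3% and 37.7%. Over all bins, the ovarian part was less closed than the testis on 3 of the 16 scaffolds, among them scaffold 17 with 46.6% against 52.7%, and more closed on 13. Scaffold 17 also had the most open surroundings, with medians within 50 kb of 89.6% in the ovarian part, 76.7% in the testicular part and 67.2% in the testis. For these medians the full order of the tissues held on 12 of 16 scaffolds. The testis was above the testicular part on scaffolds 1, 3, 4 and 6, and on scaffold 6 it was also above the ovarian part, with 39.8% in the ovarian part, 38.8% in the testicular part and 40.6% in the testis.

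**Figure D4:**
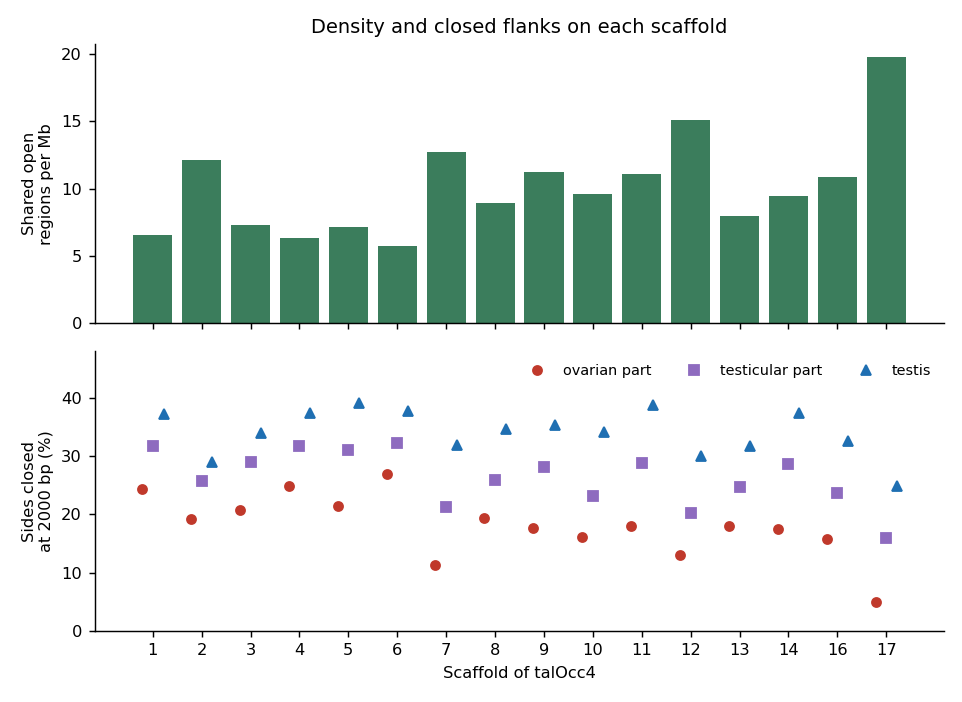
Members per Mb of each scaffold (bars, top) and share of sides closed at 2000 bp in percent (points, bottom), for the 16 scaffolds numbered as in talOcc4. On every scaffold the ovarian part is lowest, the testicular part next and the testis highest; scaffold 17 has 19.8 members per Mb and the lowest closed shares, 5%, 15.9% and 24.8%.

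The members were unevenly spaced. The median gap between neighbours was 35400 bp, with quartiles of 10400 bp and 100200 bp, and 77.5% of members had another within 50 kb. Gaps of 1 Mb or more numbered 223, and the longest, 4390600 bp, was on scaffold 6. Among 1907 windows of 1 Mb, the median held 7 members, 113 held none, and the densest 191 windows held 35.1% of the members counted. At the short end, 399 neighbours were separated by a single bin. In these gaps, state 1 was interrupted in the testis in 72.9%, in the ovarian part in 36.1% and in the testicular part in 36.3%, and in the testis alone in 46.4%. Each of the 580 interruptions was a bin in state 2. The region farthest from any other, on scaffold 17 at 33627001 to 33627600, had its nearest neighbour 2612600 bp away, and was open over 1000 bp in the ovarian part and 600 bp in each of the others.

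**Figure D5:**
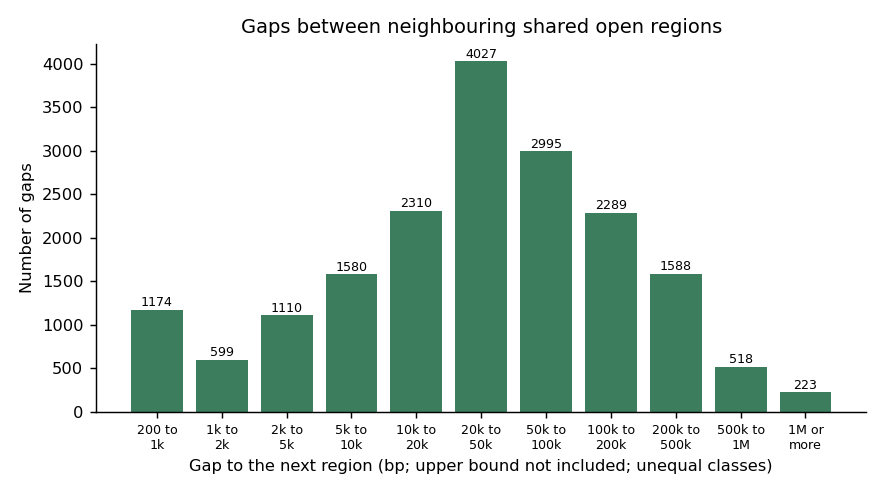
Number of gaps between neighbouring members on a scaffold by gap length in bp, in classes of unequal width. The class from 20 to 50 kb holds the most gaps, 4027, and the class under 1 kb, with 1174, exceeds the class from 1 to 2 kb, with 599.

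The densest stretch lay on scaffold 2 between 33000001 and 41000000, and there the testicular part stood apart. It held 516 members, 27.7% of those on the scaffold, or 64.5 per Mb, and 31 of the 186 runs of 2000 bp or more. The densest single window, from 40000001 to 41000000, held 105 members, and the member with the most others within 50 kb, at 38112401 to 38112800, had 26. State 1 covered 6.64% of the stretch in the ovarian part, 12.3% in the testicular part and 6.24% in the testis, against 0.898%, 0.926% and 0.879% of the rest of the scaffold. The segments that held its members, counted once per member, averaged 807.4 bp in the ovarian part, 1728 bp in the testicular part and 658.1 bp in the testis. Their medians were 600 bp, 1000 bp and 400 bp in the same order of tissues. The order of the first pair was thus reversed here, and the flanks at 2000 bp were closed at similar shares, 9.79%, 9.5% and 9.98%. The reversal in mean width was not confined to the stretch. In the rest of the scaffold the means were 771 bp in the ovarian part and 818 bp in the testicular part. On scaffold 8 they were 734.7 bp and 775.1 bp. The limits of the stretch were set after its window counts were seen, and whether its sequence is repeated or collapsed in the assembly was not tested, as no genome was used. Without scaffold 2, the mean segment was 768.3 bp in the ovarian part, 712.8 bp in the testicular part and 641 bp in the testis, so this scaffold raised the mean of the testicular part.

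Single regions show the range within the set. The 3 of 1800 bp named first were taken from the 122 members of that length in order of scaffold and position, 1 per scaffold. The member of 1800 bp on scaffold 1 at 1567201 to 1569000 was a sharp island: state 1 measured 1800 bp in every tissue, the run of states 1 to 3 was 2000 bp in the ovarian part and 2200 bp in each of the others, and state 5 lay 2000 bp away on both sides in all 3. Such flanks were unusual. State 5 held 0.472% of member sides at 2000 bp in the ovarian part, 0.548% in the testicular part and 0.524% in the testis. Over all bins it held 2.24%, 2.28% and 2.1%. The member of 1800 bp on scaffold 2 at 30632201 to 30634000 was the opposite of this island. It lay in a run of states 1 to 3 of 22200 bp in the ovarian part, 22000 bp in the testicular part and 22200 bp in the testis, with 12 other members within 50 kb. Another of the same length, on scaffold 3 at 5411001 to 5412800, had a state 1 segment of 1800 bp in the ovarian part, 2000 bp in the testicular part and 2400 bp in the testis, and here the testis was widest. A short member could also lie inside a wide open segment. On scaffold 8, the member at 44055201 to 44055400 had a state 1 segment of 200 bp in the ovarian part, 6400 bp in the testicular part and 5600 bp in the testis. State 1 covered 89.3% of this testis segment in the ovarian part, with state 2 over the remaining 10.7%, and 100% in the testicular part. Most of the testis segment was therefore open in all 3 tissues, although the member was only 200 bp long. The widest segment of any tissue that held members, 27000 bp in the testicular part at 44066601 to 44093600 of the same scaffold, contained 4 of them, and state 1 covered 68.9% of it in the ovarian part and 36.3% in the testis. Among the smallest, the member on scaffold 1 at 1860001 to 1860200 was open over 1200 bp in the ovarian part, 400 bp in the testicular part and 200 bp in the testis.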

How the data were processed

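Per the labels, the 6 samples (2 per tissue) are ATAC-seq libraries of gonads from wild-type Talpa occidentalis at postnatal day 7. The authors deposited 1 segmentation per tissue, whose column 4 holds a state number from 1 to 5, a category with no scale; both samples of a tissue are given the same file, so no sample has a value of its own. The aligner, the segmentation method and the signal behind these states are not given in the sources used here; STAR 2.6.1d and mm9 appear in the submitters' processing notes with no role. Depth is unknown.

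From these files, state arrays in 200 bp bins were built for scaffolds 1 to 17 with Python 3.11.15 and NumPy 2.4.6. Widths, edges, flanking states, gaps, surroundings within 50 kb and counts per 1 Mb were computed; Wilson intervals at 95% (SciPy 1.17.1) cover counting error only, and members that lie close together are not independent. The finding of members, the widths, the gaps and the state of the first bin outside a tissue's own segment were tested on simulated segmentations. The other measures were not. Positions are 1-based. Figures were drawn with Matplotlib 3.10.9.

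The members and measures were chosen with earlier results of these data known. Named regions were 3 of the 122 members that tie as longest, taken in order of scaffold and position with 1 per scaffold, the most crowded, the most isolated, and those with the narrowest and widest testis segment. The stretch of scaffold 2, the flanks at 2000 bp, the surroundings, the widest segment of the testicular part and the extreme pair were chosen after seeing the data. Base composition, motifs and gene starts, which had been planned, were not run, since no genome or annotation of talOcc4 was used.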

Additional observations from a re-analysis of the deposited data

How the results depend on the processing

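Of 85 values recomputed under an alternative, 43 stayed within the limits set and 42 moved. A reversal was defined only for the differences between tissues in surroundings, and none of these reversed. Counts, widths and these differences were held to a factor of 1.5 and shares to their narrow counting intervals. The order of the tissues was kept in each alternative for widths and closed flanks. With states 1 or 2 as the open state in all 3 tissues there were 53089 members. The next widths are those of the run of states 1 or 2 around the members of the main set. This run was wider in the ovarian part than in the testicular part at 58.4% and narrower at 24.1%. It was wider in the ovarian part than in the testis at 62.3% and narrower at 20.3%. It was wider in the testicular part than in the testis at 44.2% and narrower at 31.6%. Its means were 3069 bp in the ovarian part, 2742 bp in the testicular part and 2393 bp in the testis. For the state 1 segment, the same 3 pairs of shares were 35.6% and 18.4%, 41.9% and 16.2%, and 30.5% and 19.3% in the main set. With members of at least 400 bp, the state 1 shares were 36.5% and 16.3%, 44.2% and 13.4%, and 31.2% and 17.7%. Without scaffold 2, the state 1 segment of the testicular part was wider than that of the ovarian part at 17.2%. It was wider than that of the testis at 29.8%. Edges of all 3 tissues met at 86.1% of sides within 1 bin. State 1 held 5.91% of bins at 1000 bp in the ovarian part, 5.87% in the testicular part and 4.79% in the testis; for members with no other within 5000 bp, the first bin outside was in state 1 at 31.9% in the ovarian part and 21.3% in the testicular part.

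The closed share at 2000 bp, for the ovarian part, the testicular part and the testis in this order, was 18.5%, 26.8% and 34.3% from each tissue's own edge, 21.6%, 31% and 39.2% with no other member within 5000 bp, 18.3%, 26.5% and 34.2% without scaffold 17, 15.7%, 26.7% and 35.4% with members of at least 400 bp, and 77.9%, 81.3% and 83.3% with states 3 to 5 as closed. It was 34.1% in the testis without scaffold 2, and 26.6% in the testicular part and 34.4% in the testis with scaffold 15 kept. The flank, surroundings and scaffold alternatives were chosen after seeing the data.

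No paired analysis was possible because each tissue has 1 pooled file, and no sample was left out for the same reason. Composition, motif and gene start alternatives were not run. The effect of depth on the states was not tested.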

Other observations

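Scaffold 15, outside the set, held 477 runs of the same kind, or 5.36 per Mb, below the 5.76 per Mb of scaffold 6. The segments around them averaged 773.2 bp in the ovarian part, 600.4 bp in the testicular part and 571.1 bp in the testis. The sides closed at 2000 bp were 24.7% in the ovarian part, 54.1% in the testicular part and 64.7% in the testis, a wider gap between tissues than on any of the 16 scaffolds. There the closed share over all bins also ran in this order, with 76.1%, 86.5% and 88.9%.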
